A study of Mus musculus with 12 samples.

Results

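The liver response to a maple syrup extract was described in male C57BL6 mice fed a high-fat diet. It rests on 6 of the 12 arrays of the study, 3 of high-fat control livers and 3 of high-fat MSX livers, compared across the 22180 genes for which the platform annotation gave a probe set with a single symbol. Both groups ate a diet with 45% of energy from fat at will for 12 weeks, from 6 to 18 weeks of age. They differed in the addition of 0.5% (w/w) of MSX, a food-grade, phenol-rich extract made from maple syrup. The other 6 arrays came from mice on a diet with 10% of energy from fat, without the extract (low-fat control) or with it (low-fat MSX), and serve below as reference levels and in the test of whether the extract effect differed between diets. RNA was extracted from liver with Trizol, labelled with biotin and hybridised to 1 Affymetrix array per sample. The titles number the 3 samples of each group as biological replicates.

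The liver takes up fatty acids from blood, stores them as triglyceride in lipid droplets, oxidises them in mitochondria and peroxisomes, and exports lipid in lipoproteins. Perilipins and CIDE proteins coat and fuse the droplets, while the nuclear receptors PPAR gamma and PPAR alpha are known as regulators of storage and of oxidation genes. Mouse liver also differs between the sexes, because the pulsatile growth hormone of males acts through STAT5 to maintain male-biased genes and repress female-biased ones.

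The labelled tissue was checked against hepatocyte markers, of which 10 of 10 lay above the array median. Array medians lay between 4.68 and 4.75 on the deposited log2 scale, and pairs of high-fat arrays correlated at 0.973 to 0.983. High-fat control replicate 1 stood apart in markers of other cell types. Each marker was set against its own 12-array mean. As the median of these deviations, its stellate cell and matrix markers lay at 0.78, its macrophage and Kupffer cell markers at 0.55, its cholangiocyte markers at 0.53 and its B cell markers at 0.47. The macrophage and Kupffer cell markers of high-fat control replicate 3 lay at −0.64. These 2 control arrays differed from each other more than from the MSX arrays in macrophage markers, as the plot of marker deviations shows. In a piece of liver, fewer cells of a type and less RNA per cell cannot be told apart.

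**Figure D1:**
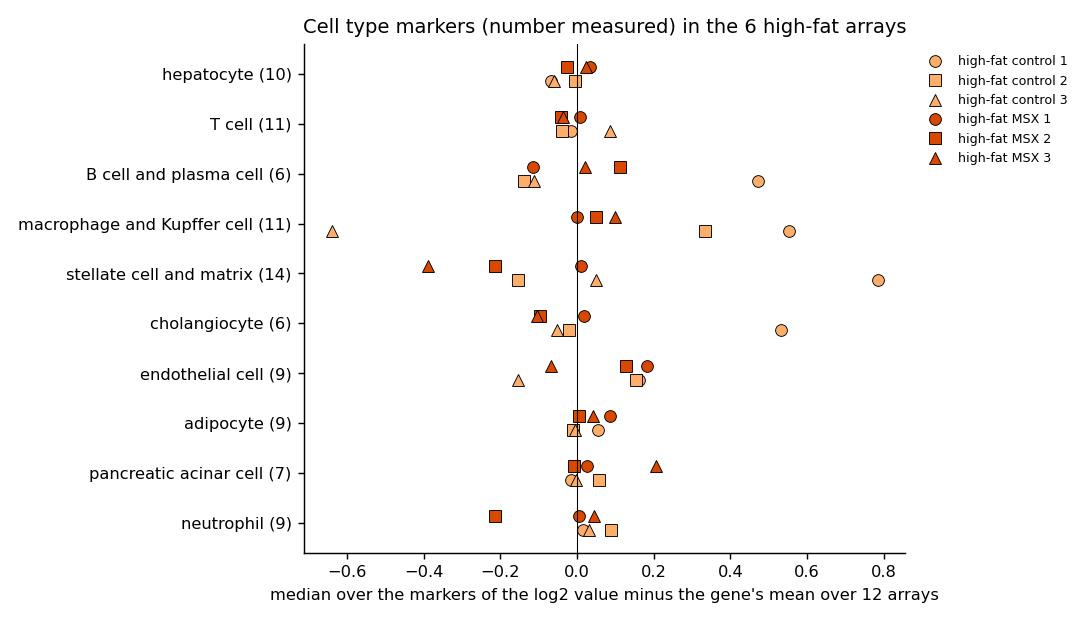
Each symbol is 1 of the 6 high-fat arrays (pale for control, dark for MSX, with shape for the replicate number), and the horizontal axis gives the median over the markers of a cell type of the log2 value minus the gene's mean over the 12 arrays. High-fat control replicate 1 lies to the right of the other arrays in stellate cell (0.78), cholangiocyte (0.53), B cell (0.47) and macrophage (0.55) markers, and T cell markers of all 6 arrays lie between −0.04 and 0.09.

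With the extract, 8 of the 22180 genes passed the threshold (limma, adjusted p under 0.05 by the Benjamini-Hochberg method over all genes), 3 higher and 5 lower, which is 0.0135% and 0.0225% of the genes tested. Genes for storing fatty acids fell, namely the droplet protein gene Plin4, the uptake genes Cd36 and Slc27a1 and the glycerolipid enzyme gene Gpat3, and Themis, a gene of T cell signalling, fell with them. The male-specific steroid dehydrogenase gene Hsd3b5, the transcriptional repressor gene Bhlhe41 and F11, which encodes coagulation factor XI, rose. At an unadjusted p under 0.05 there were 771 genes higher (3.48%) and 779 lower (3.51%), 1550 in all, and 5% of the genes is 1109. The highest control array lay below the lowest MSX array in 1485 genes (6.7%), and the reverse held in 1223 (5.51%). Most genes moved little, with 90% of the log2 differences between −0.33 and 0.31 and a median of 0.01, and 28 genes were over 2-fold higher and 38 over 2-fold lower.

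**Figure D2:**
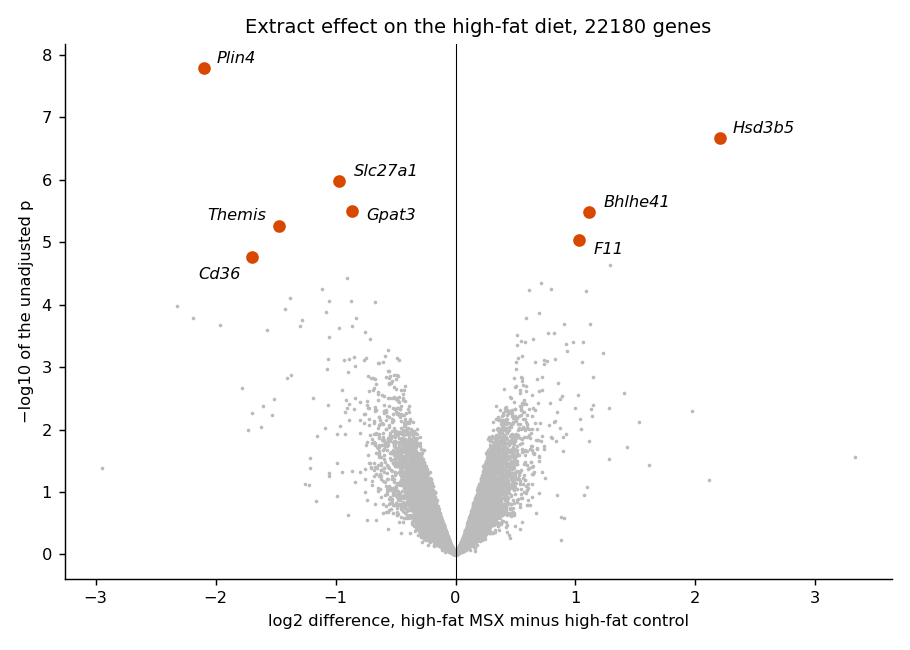
Each point is 1 of 22180 genes, with the log2 difference between high-fat MSX and high-fat control means on the horizontal axis and −log10 of the unadjusted limma p on the vertical axis. The 8 named points passed the threshold, with Plin4 farthest up on the lower side and Hsd3b5 on the higher side, and several points with larger differences lie near the bottom.

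The lipid storage genes that fell had low values in every MSX array. Plin4, a perilipin that coats lipid droplets, read 8.21, 8.47 and 7.80 in the control arrays and 6.0, 6.02 and 6.15 in the MSX arrays. The groups were separated by more than their own spread, and the MSX arrays lay close together. As a log2 difference, Plin4 fell by 2.10 (SE 0.17, adjusted p = 0.000367, limma). Its low-fat control arrays read 7.11, 7.05 and 7.10, so that the high-fat MSX arrays lay below those controls as well. Cd36, the fatty acid translocase of the cell surface, read 10.40, 10.04 and 10.58 in the control arrays and 9.12, 8.26 and 8.54 in the MSX arrays, and every MSX array lay below every control array. Cd36 fell by 1.70 (SE 0.26, adjusted p = 0.0479), with an MSX array, replicate 1, at the level of the low-fat controls, which read 9.02, 9.68 and 9.42.

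Slc27a1 encodes the fatty acid transport protein FATP1, which also activates the acids it takes in. It read 6.72, 7.04 and 6.81 in the control arrays and 5.82, 5.91 and 5.94 in the MSX arrays, with a narrow spread in both groups, and fell by 0.97 (SE 0.11, adjusted p = 0.00783). The low-fat control arrays, at 6.70, 6.88 and 6.76, covered much the same range as the high-fat controls. Gpat3 encodes a glycerol-3-phosphate acyltransferase, which catalyses the first step from glycerol phosphate to triglyceride. Its arrays read 7.42, 7.26 and 7.24 in the control arrays and 6.47, 6.33 and 6.54 in the MSX arrays, without overlap, and it fell by 0.86 (SE 0.11, adjusted p = 0.0149). A dimmer probe set of Gpat3 gave a difference of −0.34, so the size for this gene depends on the probe set.

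Among the genes that rose, Hsd3b5 encodes a 3-ketosteroid reductase made in the liver of adult male mice. It read 7.69, 7.78 and 8.34 in the control arrays and 9.80, 10.66 and 9.96 in the MSX arrays, so that the lowest MSX array was more than 1 log2 unit above the highest control array. Hsd3b5 rose by 2.21 (SE 0.23, adjusted p = 0.00239). The low-fat control arrays, at 8.98, 8.94 and 8.71, lay between the high-fat groups. Hsd3b5 has close relatives in the same gene family, and hybridisation of their RNA to its probes was not tested.

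Bhlhe41, also known as Dec2, encodes a repressor in the feedback loops of the circadian clock. Its arrays read 5.39, 5.22 and 5.15 in the control arrays and 6.48, 6.43 and 6.18 in the MSX arrays, and it rose by 1.11 (SE 0.15, adjusted p = 0.0149). F11 encodes coagulation factor XI, a plasma protease made by hepatocytes, and read 8.47, 8.66 and 8.84 in the control arrays and 9.61, 9.82 and 9.64 in the MSX arrays. Both genes had groups without overlap, and the rise of F11 was 1.03 (SE 0.15, adjusted p = 0.029). For both, the low-fat control arrays overlapped the range of the high-fat controls, at 5.41, 5.33 and 5.56 for Bhlhe41 and 8.91, 8.67 and 8.69 for F11.

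Themis encodes a protein of T cell receptor signalling and thymocyte selection. Its arrays read 6.60, 6.46 and 6.31 in the control arrays and 5.17, 4.82 and 4.98 in the MSX arrays, against 4.78, 5.44 and 4.68 in the low-fat controls. The high-fat control arrays thus stood above all 9 others, and the gene fell by 1.47 with the extract (SE 0.20, adjusted p = 0.0202). T cell markers were read beside it. Of 11 measured, 1 was higher and 0 were lower at an unadjusted p under 0.05, 0 separated the groups, and their mean level lay between 4.73 and 4.93 in control arrays and between 4.75 and 4.89 in MSX arrays. Over all genes, 3.48% were higher and 3.51% lower at an unadjusted p under 0.05, and 6.7% and 5.51% without overlap. Of the 11 T cell markers, 4 lay above 0 and 7 below, from −0.30 to 0.57, with a median of −0.06. Cd3e, Cd3g and Cd8a, which encode parts of the T cell receptor complex and its coreceptor, had differences of −0.10, −0.19 and −0.15. With an array left out, Cd3g ran from −0.33 without control replicate 3 to −0.03 without control replicate 1. No defining T cell marker was called, and 6 of the 11 lay above the array median.

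The 8 calls did not rest equally on all arrays. Plin4 and Hsd3b5 passed with any 1 of the 6 high-fat arrays left out, and Slc27a1 with any but MSX replicate 2 (adjusted p = 0.0586 without it). Themis and F11 lost the call whichever array was left out (adjusted p up to 0.148 and 0.18), Bhlhe41 kept it in 2 of 6 cases (up to 0.115), and Gpat3 and Cd36 in 1 of 6 (up to 0.115 and 0.221). The call of Cd36 was also lost in 6 of 8 other settings, namely the mean of probe sets, every probe set, quantile normalization, array weights, the replicate block and the high-fat arrays alone. That of Gpat3 was lost in 4 of 8, all but quantile normalization and array weights among these 6. The differences kept their sign in those cases for all 8 genes, with Plin4 between −2.28 and −1.94 and Hsd3b5 between 1.95 and 2.41 over all alternatives. Leaving out an array gave between 2 and 6 calls, with 2 without MSX replicate 2, 3 without control replicate 3, 5 without control replicate 1 or 2, and 6 without MSX replicate 1 or 3. These totals count any gene that passed, not only the 8. They include Pparg and Cyp2c39 without MSX replicate 1, Cyp2b13 and Slc22a27 without control replicate 2, and Cidec without control replicate 1.

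**Figure D3:**
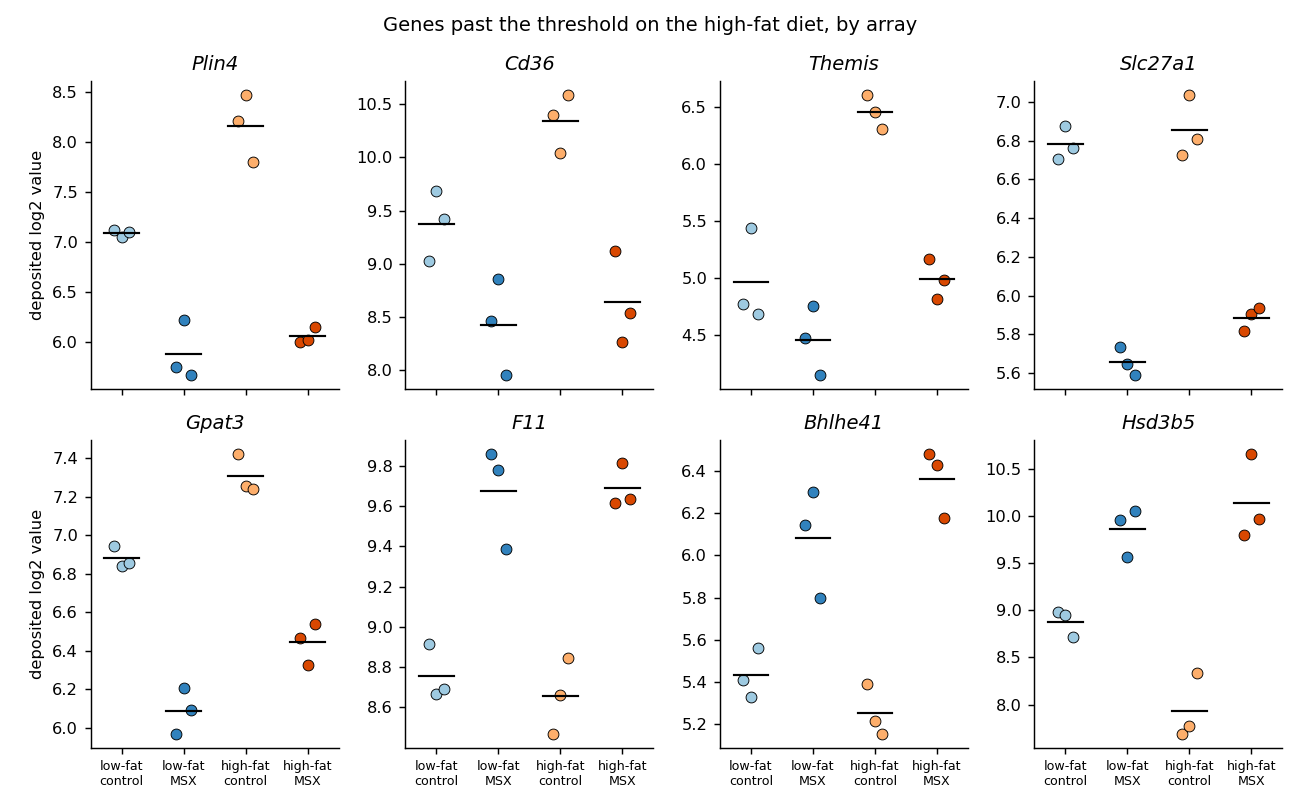
Each panel shows 1 of the 8 genes past the threshold, with the deposited log2 value on the vertical axis, a point for each of the 12 arrays by group and a line at the group mean. In every panel the high-fat MSX points (right) lie apart from the high-fat control points, and the low-fat MSX points lie on the same side of the low-fat controls, without overlap except in Themis, where the highest MSX point reaches the range of the controls.

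Promoters of 5 called genes are shown, so that the letters known to be read by nuclear receptors, STAT5 and clock repressors can be set beside genes of fatty acid storage, the male-biased Hsd3b5 and the clock gene Bhlhe41. RefSeq windows of 300 bases, 250 before and 50 after the annotated start, were matched by symbol for all 8 genes on GRCm38.p6, 11 windows in all. The search covered both strands and 3 motifs, the nuclear receptor motif AGGTCA, the STAT5 site TTCNNNGAA and the E-box CACGTG. They occur in 16.26%, 8.298% and 7.15% of the 32851 mouse windows. Capitals mark a match, and AGGTCA on the other strand reads TGACCT. The windows are Plin4 at chr17:56109733-56110032 (minus strand), Cd36 at chr5:17835847-17836146 (minus strand), Slc27a1 at chr8:71570344-71570643 (plus strand), Hsd3b5 at chr3:98645485-98645784 (minus strand) and Bhlhe41 at chr6:145865371-145865670 (minus strand), each printed 5′ to 3′ along its gene. Slc27a1 has 3 windows, and the 1 printed was picked because it holds a match, while the other 2 hold none.
Plin4: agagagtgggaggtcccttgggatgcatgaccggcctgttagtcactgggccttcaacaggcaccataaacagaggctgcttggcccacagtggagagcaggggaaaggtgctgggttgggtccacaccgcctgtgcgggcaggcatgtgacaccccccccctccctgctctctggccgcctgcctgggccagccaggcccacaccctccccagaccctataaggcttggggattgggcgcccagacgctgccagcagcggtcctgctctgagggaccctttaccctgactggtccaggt
Cd36: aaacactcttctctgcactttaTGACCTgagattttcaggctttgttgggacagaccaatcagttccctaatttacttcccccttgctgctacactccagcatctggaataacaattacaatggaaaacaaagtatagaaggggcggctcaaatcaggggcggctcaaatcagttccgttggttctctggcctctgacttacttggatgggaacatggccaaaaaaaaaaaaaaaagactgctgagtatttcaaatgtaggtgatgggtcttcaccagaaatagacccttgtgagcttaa
Slc27a1: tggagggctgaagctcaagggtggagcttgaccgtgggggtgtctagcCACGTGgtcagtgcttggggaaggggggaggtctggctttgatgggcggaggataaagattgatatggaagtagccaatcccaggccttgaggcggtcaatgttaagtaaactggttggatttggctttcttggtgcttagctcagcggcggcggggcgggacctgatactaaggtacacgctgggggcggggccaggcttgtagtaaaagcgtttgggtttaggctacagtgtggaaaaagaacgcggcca
Hsd3b5: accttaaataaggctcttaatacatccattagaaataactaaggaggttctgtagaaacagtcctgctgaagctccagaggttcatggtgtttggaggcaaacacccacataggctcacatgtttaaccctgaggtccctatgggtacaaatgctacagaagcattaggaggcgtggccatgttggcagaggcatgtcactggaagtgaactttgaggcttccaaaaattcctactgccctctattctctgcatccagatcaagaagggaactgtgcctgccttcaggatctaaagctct
Bhlhe41: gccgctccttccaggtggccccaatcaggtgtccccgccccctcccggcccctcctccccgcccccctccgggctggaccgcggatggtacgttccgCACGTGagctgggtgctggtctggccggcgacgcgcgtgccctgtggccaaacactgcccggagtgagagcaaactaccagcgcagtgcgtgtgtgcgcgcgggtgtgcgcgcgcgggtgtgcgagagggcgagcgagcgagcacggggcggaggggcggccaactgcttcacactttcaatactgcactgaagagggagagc
The window of Bhlhe41 holds CACGTG from base −153 relative to the start, the printed window of Slc27a1 holds it from −202, and the Cd36 window holds TGACCT from −228. The STAT5 motif was in none of the 11 windows, and Plin4 and Hsd3b5 held no match to any of the 3. A match describes the letters only and is not a binding site, and the lack of one says only that these letters are not in the window.

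The wider set of lipid droplet genes lay on the low side, but Plin4 was the only one past the threshold. Of 18 measured droplet coat and turnover genes, 15 had a difference below 0, 6 were lower and 0 higher at an unadjusted p under 0.05, and the median log2 difference was −0.23. Over all genes, 51.6% had a difference above 0, 3.51% were lower at that p, and the median was 0.01. The array left out moved the median between −0.30 and −0.18, and the lower count was 4 without MSX replicate 3. Cidec, whose product fuses droplets into larger ones, read 9.30, 7.10 and 7.30 in the control arrays and 5.44, 5.75 and 5.52 in the MSX arrays. Its MSX arrays were tight and all below the controls, while control replicate 1 stood far above the other controls. The difference was −2.33 (SE 0.43, adjusted p = 0.118), and without control replicate 1 it was −1.62 and passed (adjusted p = 0.0272).

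G0s2, which encodes an inhibitor of the lipase ATGL, read 9.21, 9.21 and 8.96 in the control arrays and 8.54, 8.33 and 8.39 in the MSX arrays, a difference of −0.71 (adjusted p = 0.196). Plin5, whose product tethers droplets to mitochondria, read 8.35, 8.65 and 8.50 in the control arrays and 7.86, 8.0 and 7.92 in the MSX arrays, and Plin2, the main droplet coat gene of liver, read 10.89, 10.97 and 10.85 in the control arrays and 10.50, 10.74 and 10.25 in the MSX arrays. In these 3 genes no array of one group reached the range of the other. The differences of Plin5 and Plin2 were −0.58 and −0.41 (adjusted p = 0.609 and 0.729). Plin1, the perilipin of fat cells, was dim in all arrays and differed by −0.10. Cidea read 7.86, 4.58 and 4.36 in the control arrays and 4.54, 4.10 and 4.51 in the MSX arrays, so that control replicate 1 alone carried its difference of −1.22, which was −0.09 without that array and −1.84 without control replicate 3.

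Among 13 measured genes of fatty acid uptake, binding and activation, Cd36 and Slc27a1 passed. In all 5 were lower and 1 higher at an unadjusted p under 0.05, with a median of −0.14, and without MSX replicate 2 the lower count was 3 and neither gene passed. The shares over all genes at that p were 3.51% lower and 3.48% higher. Vldlr, a receptor that takes up triglyceride-rich lipoproteins, differed by −0.80 (adjusted p = 0.563). Fabp4, a fatty acid binding protein of fat cells and macrophages, read 7.0, 6.73 and 6.71 in the control arrays and 6.57, 6.12 and 6.24 in the MSX arrays, a difference of −0.50 (adjusted p = 0.641) in groups that did not overlap. Fat cell genes were dim, with Adipoq between 2.25 and 2.84 and Lep between 3.58 and 4.10 in the 6 arrays, and the 9 adipocyte markers had a median difference of −0.01.

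Of the 16 glycerolipid synthesis genes, 0 were higher and 1, Gpat3 itself, was lower at an unadjusted p under 0.05, where 3.48% and 3.51% of all genes were. Without overlap of the groups, 1 of the 16 was higher and 4 were lower, where 6.7% and 5.51% of all genes were. The median of the list was −0.15 (−0.10 without control replicate 1 and −0.09 without MSX replicate 2). Dgat2, which catalyses the last step to triglyceride, differed by 0.23, Mogat1 by −0.32 and Gpat4 by −0.20, so the enzymes around Gpat3 did not pass with it. The nuclear receptor gene Pparg read 7.67, 7.18 and 7.26 in the control arrays and 6.67, 6.06 and 6.02 in the MSX arrays. All MSX arrays lay below all controls, and the difference was −1.12 (SE 0.19, adjusted p = 0.0897). It passed without MSX replicate 1, the highest of the MSX arrays, at −1.33 (adjusted p = 0.0332). Ppara, the receptor of the fasting response, differed by −0.03, and the coactivator genes Ppargc1a and Ppargc1b by −0.68 (−0.44 without MSX replicate 2) and 0.39. Over the 11 receptor and coactivator genes the median was −0.02 (−0.05 to 0.07 with an array left out), and 0 passed.

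Genes of fatty acid oxidation and other targets of PPAR alpha also sat mostly below 0, with none past the threshold. Of 25 measured, 21 had a difference below 0, 12 were lower without overlap, and 8 were lower and 0 higher at an unadjusted p under 0.05, with 5 lower without MSX replicate 2. Over all genes, 5.51% were lower without overlap and 3.51% at that p. The median was −0.19 on the high-fat diet and −0.47 on the low-fat diet. Pdk4, a kinase that shuts pyruvate out of oxidation, read 7.82, 7.45 and 7.26 in the control arrays and 6.44, 5.92 and 6.01 in the MSX arrays, a difference of −1.38 (SE 0.25, adjusted p = 0.107). Acot1, an acyl-CoA thioesterase, read 7.92, 8.25 and 8.58 in the control arrays and 7.39, 7.61 and 7.27 in the MSX arrays, a difference of −0.83 (adjusted p = 0.143). Both genes separated the groups in every array. Acot1 and its neighbour Acot2, at −0.95, are near-identical copies, and hybridisation between them was not tested.

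Fgf21, a fasting hormone of the liver, differed by −0.74 and Cpt1a, the entry enzyme of mitochondrial oxidation, by −0.19 (adjusted p = 0.641 and 0.81), with Cpt1a at −0.11 without control replicate 1. Cyp4a14, an omega-hydroxylase of fatty acids, read 12.55, 12.74 and 12.67 in the control arrays and 12.37, 11.09 and 12.26 in the MSX arrays, and MSX replicate 2 supplied most of its difference of −0.75, which was −0.34 without that array. Pex11a, a peroxisome division gene, differed by −0.49 (adjusted p = 0.36). Levels on the low-fat diet moved further for Acot1 and Fgf21, at −1.96 and −1.51, but the difference between diets did not pass for either (adjusted p = 0.664 and 0.955, limma).

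**Figure D4:**
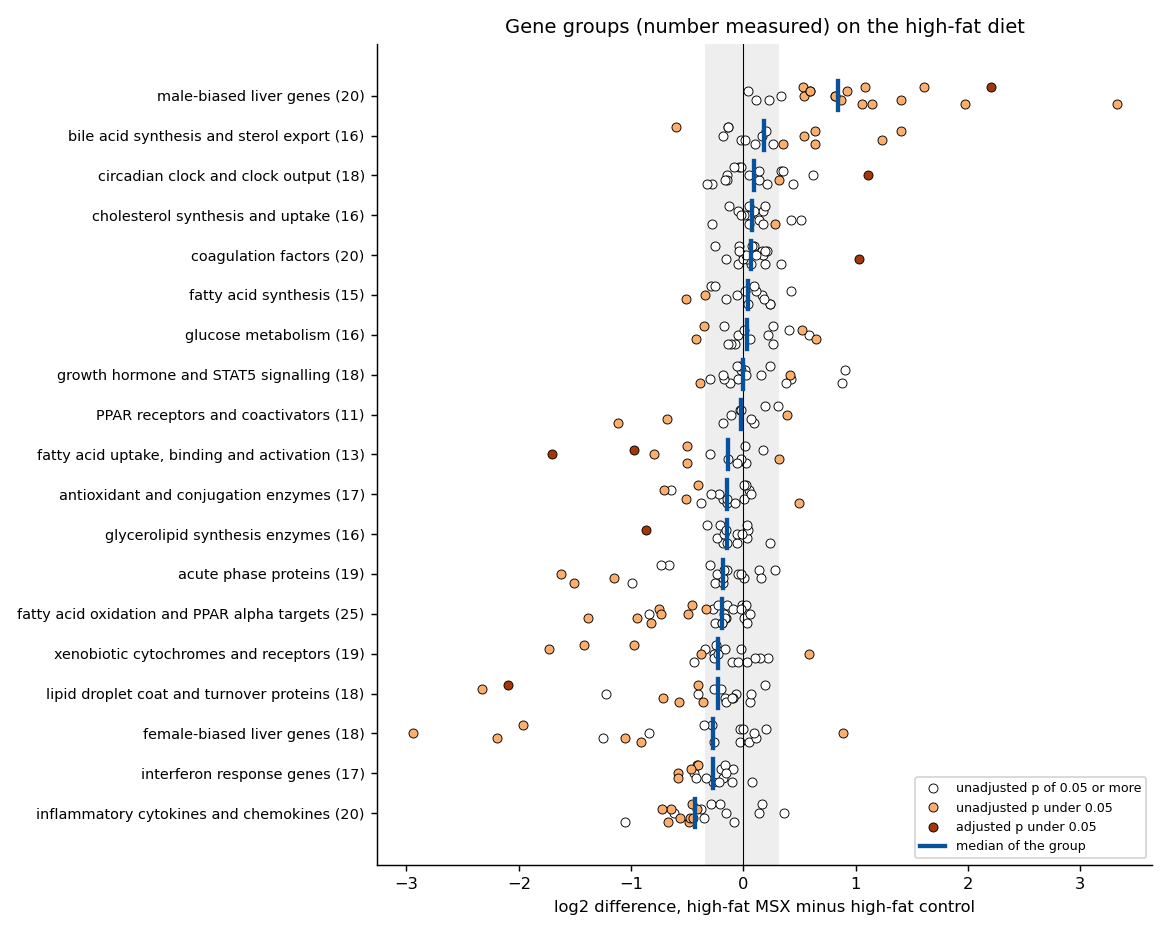
Each point is 1 gene of the group named at the left (number measured in brackets), placed by its log2 difference between high-fat MSX and high-fat control means, with fill for the unadjusted and adjusted p, a blue bar at the group median and a grey band from −0.33 to 0.31 that holds the middle 90% of all genes. Male-biased genes have a median of 0.85, beyond the band, and the inflammatory genes at the bottom have a median of −0.43.

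Male-biased liver genes lay higher with the extract as a group. All 20 measured had a difference above 0, where 51.6% of all genes did (19 of 20 without control replicate 1). At an unadjusted p under 0.05, 16 were higher and 0 lower, where 3.48% of all genes were higher. Without overlap of the groups, 16 were higher and 0 lower, where 6.7% of all genes were higher. The median log2 difference was 0.85, against 0.01 over all genes, and on the low-fat diet the median of the list was 0.56. The difference between the diets had an unadjusted p under 0.05 in 3 of the 20 genes, and in 1130 of all 22180 genes. MSX replicate 2 was the highest array, with a median deviation of 0.73, and control replicate 1 the lowest at −0.66, and the other MSX arrays, at 0.03 and 0.19, also lay above the other controls at −0.43 and −0.39. Without MSX replicate 2 the median was 0.70 and 11 genes were higher at an unadjusted p under 0.05, against 16 with all arrays. Only Hsd3b5 passed the threshold.

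Nudt7, a peroxisomal enzyme that cleaves coenzyme A, read 10.18, 10.29 and 10.54 in the control arrays and 11.20, 11.68 and 11.39 in the MSX arrays, a difference of 1.09 (SE 0.19, adjusted p = 0.0897). Slco1a1, an organic anion transporter, differed by 0.82 (adjusted p = 0.173) and Cyp4a12b, a fatty acid hydroxylase, by 1.06 (adjusted p = 0.199). The steroid and oxysterol hydroxylase gene Cyp7b1 read 9.13, 9.40 and 9.55 in the control arrays and 10.16, 11.53 and 10.59 in the MSX arrays, a difference of 1.40 (adjusted p = 0.463). In all 4 genes the groups did not overlap. Selenbp2 read 8.69, 8.66 and 8.99 in the control arrays and 9.93, 12.09 and 10.24 in the MSX arrays, so that MSX replicate 2 stood far above the others, and its difference was 1.97 with that array and 1.31 without it. Elovl3, a fatty acid elongase, differed by 0.54 and by 0.22 without MSX replicate 2. Cyp4a12b has a near-identical copy, as do the Mup and Gstp genes of the list, and hybridisation between copies was not tested.

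Moxd1, also a member of the male-biased list, was named here after its values were seen because it had the largest difference of all genes. It read 4.40, 5.20 and 3.70 in the control arrays and 5.27, 10.06 and 7.96 in the MSX arrays, a difference of 3.33 (SE 1.35, adjusted p = 0.661). It was dim in all controls and bright in MSX replicates 2 and 3, with MSX replicate 1 at the level of the highest control.

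Female-biased genes were split. Of 18 measured, 5 were lower and 1 higher at an unadjusted p under 0.05, 13 lay below 0, and the median was −0.27, with −0.09 without control replicate 1 and −0.07 without MSX replicate 2. It was −0.44 without control replicate 2 and −0.43 without MSX replicate 1. For comparison, 3.51% of all genes were lower and 3.48% higher at an unadjusted p under 0.05, and 51.6% lay above 0. Cyp2b13, a female-biased cytochrome of mouse liver, read 6.68, 4.85 and 6.56 in the control arrays and 4.61, 3.57 and 3.34 in the MSX arrays, a difference of −2.19 (SE 0.42, adjusted p = 0.143). Slc22a27, of the organic ion transporter family, read 5.57, 3.77 and 4.95 in the control arrays and 3.52, 2.22 and 2.65 in the MSX arrays, a difference of −1.96 (adjusted p = 0.153). Both had 2 high controls and a lower control replicate 2, without which they passed, at −2.78 (adjusted p = 0.0128) and −2.46 (adjusted p = 0.0295).

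Cyp2b9 read 11.66, 11.48 and 12.01 in the control arrays and 10.99, 6.46 and 8.87 in the MSX arrays. The controls were alike, whereas the MSX arrays scattered from just below the controls to far below them. Its difference of −2.94, the lowest of all genes, had an SE of 1.30 and an adjusted p of 0.695, and was −1.79 without MSX replicate 2. Cyp2b9 and Cyp2b13 are close copies, and cross-hybridisation was not tested. Hao2, a peroxisomal oxidase of hydroxy acids, differed by −1.05 (adjusted p = 0.189), and Lifr, the receptor of leukaemia inhibitory factor, lay the other way at 0.89 (adjusted p = 0.492). Hao2 was dim, between 2.60 and 4.32 in the 6 high-fat arrays, below the array medians.

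The genes of growth hormone signalling themselves had a median difference near 0. Of 18 measured, 1 was higher and 1 lower at an unadjusted p under 0.05, 9 lay above 0 and 9 below, and the median was 0.00 (−0.01 to 0.11 with an array left out). For all genes, 3.48% were higher and 3.51% lower at that p, and 51.6% lay above 0. Ghr, the growth hormone receptor, differed by 0.16, Igf1, its main hormonal target, by 0.24 and Stat5b, the transcription factor, by 0.02. Without control replicate 1, Ghr and Igf1 were at 0.08 and 0.12, and Ghr was at 0.10 without MSX replicate 2 and 0.26 without MSX replicate 3. Cish and Socs2, feedback inhibitors induced by STAT5, differed by 0.42 and 0.90. Without MSX replicate 1 the value of Cish was 0.09, and without MSX replicate 2 it was 0.70. Socs2 read 5.62, 5.15 and 5.52 in the control arrays and 6.61, 7.58 and 4.81 in the MSX arrays, with MSX replicate 3 below all controls and the other MSX arrays above them. Its difference was 0.28 without MSX replicate 2 and 1.67 without MSX replicate 3, and another probe set of the gene gave 0.14. Igfbp2, a binding protein of insulin-like growth factors, differed by 0.41 (adjusted p = 0.639), and Stat3 by −0.39 (adjusted p = 0.658), or −0.24 without control replicate 2.

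**Figure D5:**
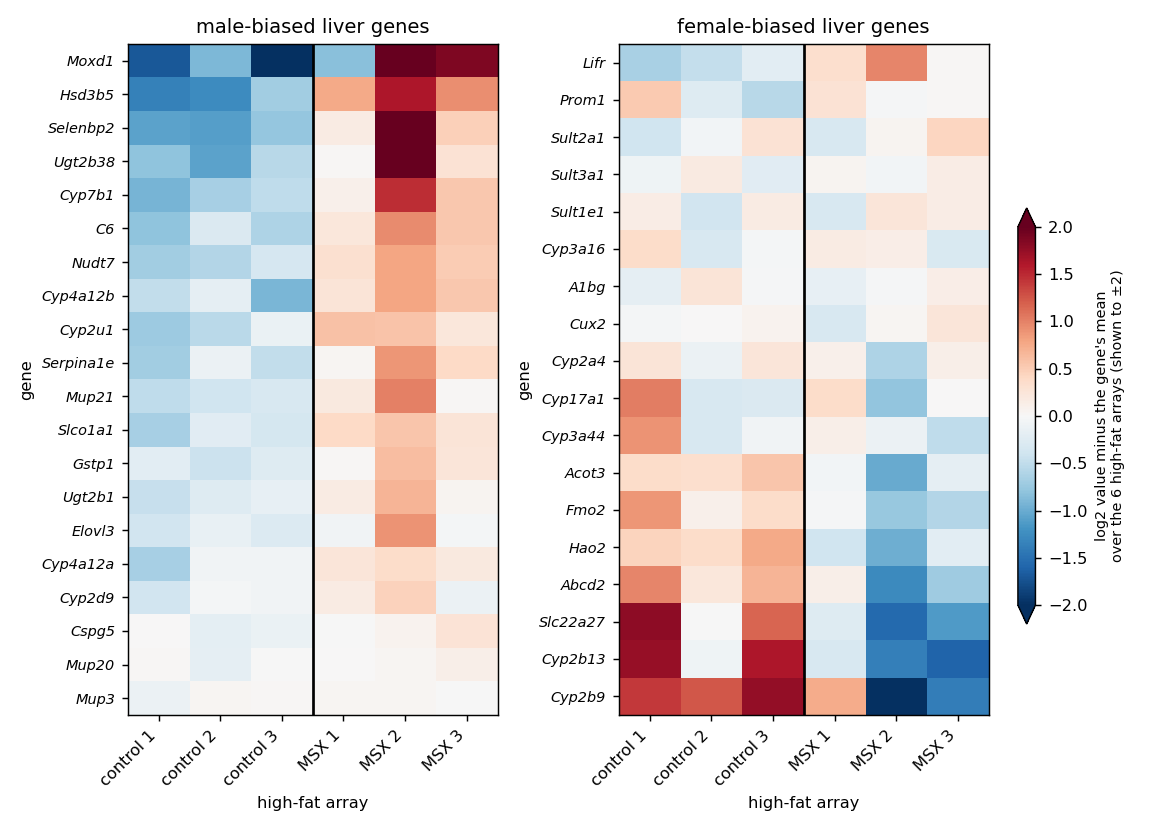
Rows are genes and columns the 6 high-fat arrays, and colour gives the log2 value minus the gene's mean over these arrays, limited at 2 log2 units in either direction. Male-biased genes (left) are mostly blue in the controls and red in the MSX arrays, most of all in MSX replicate 2, while female-biased genes (right) show the opposite only in the lower rows, from Acot3 to Cyp2b9.

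Genes of bile acid synthesis and sterol export leaned higher. Of 16 measured, 6 were higher and 1 lower at an unadjusted p under 0.05, 9 were higher without overlap and 0 lower, and the median was 0.18, while none passed. Over all genes, 3.48% were higher at that p and 6.7% without overlap. The higher count was 4 without control replicate 1 or without MSX replicate 2. Abcg8 and Abcg5, which form the transporter that secretes cholesterol into bile, read 9.20, 9.55 and 9.54 in the control arrays and 10.13, 10.01 and 10.08 in the MSX arrays and 9.11, 8.87 and 9.24 in the control arrays and 9.70, 9.52 and 9.62 in the MSX arrays in that order. Neither pair of groups overlapped, and the differences were 0.64 and 0.54 (adjusted p = 0.196 and 0.199). Cyp2c70, which makes the muricholic acids of mouse bile, differed by 1.23 (adjusted p = 0.266). Cyp7a1, the rate-limiting enzyme of bile acid synthesis, read 10.96, 10.25 and 9.52 in the control arrays and 10.04, 10.62 and 9.53 in the MSX arrays, with groups that overlapped widely and a difference of −0.18, which was 0.18 without control replicate 1.

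Bhlhe41 stood alone among the clock genes in passing. Of 18 measured, 2 were higher and 0 lower at an unadjusted p under 0.05, where 3.48% and 3.51% of all genes were. The median of the list was 0.09, with 0.04 without MSX replicate 1 and 0.16 without MSX replicate 3. Without overlap of the groups, 5 were higher and 2 lower, where 6.7% and 5.51% of all genes were. Bhlhe40, the paralogue of Bhlhe41, differed by 0.32 (adjusted p = 0.687). The clock-controlled gene Dbp differed by 0.35, and the repressor genes Cry1, Nr1d1 and Per1 by 0.44, 0.62 and −0.08. Bhlhe40, Dbp, Cry1 and Nr1d1 also separated the groups, each higher with the extract. Cry1 was at 0.22 without control replicate 3. The hour at which livers were taken is not given in the sources used here.

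F11 was likewise the only one of 20 coagulation genes to pass, and the only one at an unadjusted p under 0.05. At that p, 3.48% of all genes were higher and 3.51% lower. Without overlap of the groups, 4 of the 20 were higher, with F11, Serpind1 and Proc among them, and 0 lower. The shares over all genes were 6.7% and 5.51%. The median of the list was 0.07 (0.03 without control replicate 1). F12, which encodes the protease that activates factor XI, was flat at 11.31 in both groups. Serpind1 and Proc, which encode the inhibitor heparin cofactor II and protein C, differed by 0.19 and 0.19, and Vwf by −0.25 (−0.14 without MSX replicate 2 and −0.16 without control replicate 3).

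Cytochromes and receptors of foreign compounds gave 1 gene higher and 4 lower of 19 at an unadjusted p under 0.05, with a median of −0.22 and none past the threshold. The lower count was 6 without control replicate 1. The shares over all genes at that p were 3.48% higher and 3.51% lower. Cyp2c39 read 7.04, 6.70 and 6.39 in the control arrays and 6.07, 4.84 and 4.97 in the MSX arrays, without overlap, a difference of −1.42 (SE 0.26, adjusted p = 0.124). It passed without MSX replicate 1, the highest of the MSX arrays, at −1.81 (adjusted p = 0.00255). Cyp3a11, a cytochrome induced through the pregnane X receptor, differed by −0.97 and Cyp2c38 by −1.73 (adjusted p = 0.159 and 0.613). Cyp1a2, a target of the aryl hydrocarbon receptor, lay the other way at 0.58 (adjusted p = 0.143). The Cyp2c genes are close copies, and cross-hybridisation was not tested.

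Antioxidant and conjugation genes gave 1 higher and 3 lower of 17 at an unadjusted p under 0.05 with a median of −0.14, which was −0.06 without control replicate 3. The shares over all genes at that p were 3.48% higher and 3.51% lower. Nqo1, a quinone reductase controlled by NRF2, differed by −0.71 (adjusted p = 0.36), Ugdh, which makes the sugar for glucuronidation, by −0.51, and Srxn1, which repairs peroxiredoxins, by −0.40. Among 16 genes of glucose metabolism, 2 were higher and 2 lower, with a median of 0.03, which was 0.12 without MSX replicate 2. Gys2, the liver glycogen synthase, differed by 0.52 (adjusted p = 0.272), Irs2, an adaptor of the insulin receptor, by 0.64, and Pcx, pyruvate carboxylase, by −0.35. No gene of either list passed.

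Lipid synthesis genes had larger differences on the low-fat than on the high-fat diet, although no gene passed the test of the difference. Of 15 fatty acid synthesis genes, 0 were higher and 2 lower at an unadjusted p under 0.05 on the high-fat diet, where 3.48% and 3.51% of all genes were. The median of the 15 was 0.04 on the high-fat diet and 0.79 on the low-fat diet. The high-fat median was 0.16 without control replicate 1, with 2 genes higher and 0 lower, and −0.07 without control replicate 2 or 3. For 16 cholesterol synthesis genes the medians were 0.08 and 0.66, with 0.02 without MSX replicate 1 and 0.17 without MSX replicate 3 on the high-fat diet. The difference between the extract effects had an unadjusted p under 0.05 in 8 of the 15 and 9 of the 16 genes, and in 1130 of all genes. Fasn, fatty acid synthase, differed by 0.01 on the high-fat and 1.54 on the low-fat diet, and Sqle, squalene epoxidase, by 0.05 and 1.39. In Fasn the high-fat arrays read 9.19, 8.42 and 8.42 in the control arrays and 8.65, 8.79 and 8.62 in the MSX arrays, with full overlap.

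Scd1, the desaturase that makes oleic acid, differed by −0.34 and 0.53 on the high-fat and low-fat diets, in that order. Srebf1, the transcription factor of fatty acid synthesis, differed by 0.42 and 0.85, Acacb, an acetyl-CoA carboxylase, by −0.51 and 0.79, and Insig1, a sterol sensor partner, by 0.42 and 1.38. On the high-fat diet, Srebf1 was at 0.71 without control replicate 1 and 0.27 without control replicate 3, and Scd1 was at −0.22 without control replicate 1. The adjusted p for the difference between diets was 0.664 for Fasn, 0.664 for Sqle and 0.665 for Scd1 (limma).

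Inflammatory genes lay lower in MSX livers as a list, though none passed. Of 20 cytokine and chemokine genes, 9 were lower and 0 higher at an unadjusted p under 0.05, 17 lay below 0, and the median was −0.43 on the high-fat diet and 0.00 on the low-fat diet. Over all genes, 3.51% were lower at that p and 51.6% lay above 0. Without control replicate 1 the lower count was 5 and the median −0.30. Ccl2, which draws monocytes into tissue, read 5.88, 5.70 and 5.87 in the control arrays and 5.66, 4.95 and 4.84 in the MSX arrays, a difference of −0.67 (adjusted p = 0.527), without overlap. Tlr2, a receptor of bacterial lipoproteins, differed by −0.45, Il1rn, the interleukin 1 receptor antagonist, by −0.72, and Ccr2, the receptor of Ccl2, by −0.48 (adjusted p = 0.539, 0.576 and 0.63). Ccr2 was dim, between 3.31 and 4.25 in the 6 high-fat arrays, below the array medians.

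Markers of some other cell types lay lower beside these genes and others did not, and their part in the inflammatory values was not tested. Of 14 stellate cell and matrix markers, 4 were lower and 1 higher at an unadjusted p under 0.05, with a median of −0.41 that became −0.08 without control replicate 1. Their summed level ran from 11.4 to 12.1 log2 units in control arrays and from 11.1 to 11.5 in MSX arrays. For comparison, 3.51% of all genes were lower and 3.48% higher at an unadjusted p under 0.05. Col1a1, the main fibrillar collagen, read 8.56, 6.51 and 7.26 in the control arrays and 6.45, 6.25 and 6.35 in the MSX arrays, so that control replicate 1 held most of the difference of −1.09, which was −0.53 without it. Cholangiocyte markers gave a median of −0.24, and of −0.02 without that array. The 11 macrophage and Kupffer cell markers had a median of −0.03, which was 0.21 without control replicate 1 and −0.38 without control replicate 3, and a summed level of 10.2 to 11.3 in controls and 10.9 in MSX arrays. Neutrophil markers had a median of −0.13, with 1 of 9 above the array median. Endothelial and pancreatic acinar cell markers both had a median of 0.05, with 6 of 9 and 4 of 7 genes above 0. The endothelial median was −0.11 without control replicate 3.

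Interferon response genes gave 4 lower and 0 higher of 17 at an unadjusted p under 0.05, with 16 below 0. The shares over all genes were 3.51% lower and 3.48% higher at that p, and 51.6% lay above 0. The median of the list was −0.27 on the high-fat diet and −0.33 on the low-fat diet. The lower count was 1 without control replicate 1, without control replicate 2 or without MSX replicate 3. The high-fat median was −0.14 without MSX replicate 3 and −0.41 without MSX replicate 1. Isg15, a ubiquitin-like protein induced by interferon, and Usp18, which removes it from its targets, both differed by −0.58 (adjusted p = 0.644 and 0.682), and Usp18 by −0.33 without MSX replicate 3. Acute phase genes had a median of −0.18, which was −0.05 without MSX replicate 2 and −0.40 without MSX replicate 3, and 3 of 19 were lower at an unadjusted p under 0.05. The metal-binding genes Mt2 and Mt1 differed by −1.62 and −1.15, and by −0.90 and −0.58 without MSX replicate 2.

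Below the threshold, the genes of lowest p included several outside the lists. Nox4, an NADPH oxidase that makes hydrogen peroxide, read 8.13, 8.44 and 8.43 in the control arrays and 9.16, 9.03 and 8.93 in the MSX arrays, a difference of 0.71 (SE 0.12, adjusted p = 0.0897). Gba2, the nonlysosomal glucosylceramidase, differed by 0.61 (adjusted p = 0.0897), and Hes6, a transcriptional regulator of the Hes family, by 0.70 (adjusted p = 0.132). On the low side, the chemokine gene Ccl22 read 4.89, 4.69 and 4.82 in the control arrays and 4.08, 3.65 and 3.96 in the MSX arrays, a difference of −0.91 (adjusted p = 0.0836), at levels near the array median. The groups did not overlap in any of these genes.

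Neat1, the long noncoding RNA that scaffolds paraspeckles, read 9.93, 10.30 and 9.93 in the control arrays and 9.37, 9.11 and 9.06 in the MSX arrays, a difference of −0.87 (adjusted p = 0.107). Gpr84, a receptor for medium-chain fatty acids on myeloid cells, differed by −0.67, Tubb2a, a beta-tubulin, by −1.08 and Gas6, the ligand of the TAM receptors, by −1.28 (adjusted p = 0.107, 0.13 and 0.145). Larger differences without a call were those of the monocarboxylate transporter family gene Slc16a5, at −1.78 and −1.08 without control replicate 1, and of the ribonuclease gene Rnase2a, at 1.53 and 0.82 without MSX replicate 2.

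Likeness was ranked across the 12 arrays among genes without provisional names. The gene most like Plin4 was Gpat3, with a Pearson correlation of 0.957, followed by Neat1 at 0.934, Pcsk6 at 0.912, Epha2 at 0.911 and Fcho1 at 0.908. Those most like Hsd3b5 were Gba2 at 0.909, Nudt7 at 0.906, Cyp7b1 at 0.898, and F11 and Ces3a at 0.894. These correlations are a description of 12 arrays that share the same 4 groups.

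Whether the extract acted differently on the diets was tested directly, and no gene passed (0% of 22180, limma, lowest adjusted p = 0.664, with 1130 genes at an unadjusted p under 0.05, 592 and 538 by direction). All 8 called genes had low-fat differences of the same sign. Plin4 differed by −1.20 on the low-fat diet, with arrays of 7.11, 7.05 and 7.10 in controls and 5.75, 6.22 and 5.67 with MSX, against −2.10 on the high-fat diet (adjusted p of the difference = 0.811). Hsd3b5 gave 0.98 against 2.21 (adjusted p = 0.753), from 8.98, 8.94 and 8.71 in low-fat controls to 9.96, 9.57 and 10.06 with MSX. Slc27a1 and F11 had differences of close size on both diets, −1.12 and 0.92 on the low-fat diet, and Themis had its smaller one there, −0.51. One gene, Cyp2c39, passed the test of the difference when high-fat MSX replicate 1 was left out, and none did with all arrays.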

How the data were processed

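Liver RNA of 12 mice in 4 groups of 3 was measured on Affymetrix arrays. The authors deposited 1 log2 value per probe set and array. The submitters' processing notes name the Transcriptome Analysis Console, while software version, summarization and normalization are not stated in any source used. The values ran from 0.714 to 14.1, no array was left out, and no batch or date is labelled. Of 41345 probe sets, 25335 were in the platform annotation, 23521 with 1 gene symbol and 1814 with several. The probe set of highest mean was kept per gene, which left 22180 genes, 1082 of them with several probe sets.

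The 12 arrays entered 1 linear model of 4 group means in limma 3.58.1 under R 4.3.3 (default eBayes, two-sided, 8 residual and 5.18 prior degrees of freedom), and differences are high-fat MSX minus high-fat control on the log2 scale with the moderated SE. Benjamini-Hochberg adjustment ran over all genes. With 3 arrays a group, the smallest p of an exact permutation test is 0.1, and the number of arrays limits the precision. P-values measure the spread between these mice only, and shared cages or batches were not given. The procedure was tested on simulated data.

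The comparison, genes and lists were chosen with earlier results of these data known. Named genes are those past the threshold, the next 12 per direction by p without provisional names, the 5 largest per direction with an unadjusted p under 0.01 and no overlap, the 4 of lowest p in each list (in part), a panel of 41 genes of which 39 had a usable probe set, and the 5 genes most like Plin4 and Hsd3b5. Likeness was also ranked without provisional names. The adipocyte, T cell and other marker lists were handled as the gene lists were. Alternatives were the 6 high-fat arrays alone, a filter on dim genes, other probe set rules, quantile normalization, a trended robust prior, array weights, a replicate block and each array left out. The replicate numbers of the titles were checked as pairs: residuals of same-numbered high-fat arrays correlated at 0.106, 0.0798 and 0.112 across genes.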

Additional observations from a re-analysis of the deposited data

How the results depend on the processing

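Against 8 genes past the threshold in high-fat MSX against high-fat control, the 6 high-fat arrays alone gave 2 (Plin4 and Themis), every probe set tested gave 3, only genes above the median of all values gave 14, and a trended, robust eBayes gave 28. The high-fat arrays alone, every probe set and the filter on dim genes change the number of arrays or of genes or probe sets tested. The trended, robust eBayes changes neither. The cause of the differing counts was not tested. The mean of probe sets gave 6, and quantile normalization and array weights gave 7 each. Leaving out 1 of the 6 arrays gave 2 to 6. For the difference between diets, leaving out 1 of 12 arrays gave 0 to 1. Among 1457 values of 105 named genes under the alternatives, 1373 kept their direction and their side of the threshold, 45 lost the call, 23 gained one and 16 changed sign. Only the 8 called genes could lose a call, so all 45 losses are theirs. The 1373 also count genes that had no call to lose, and do not measure how firm the 8 calls were. All 16 sign changes belong to 7 genes with a difference between −0.18 and 0.05 with all arrays. With 1 array left out, Ppara ran from −0.0579 to 0.0061, Stat5b from −0.0104 to 0.0474, Per1 from −0.167 to 0.00497, F12 from −0.0216 to 0.0137, Cyp7a1 from −0.54 to 0.177, Fasn from −0.119 to 0.268 and Sqle from −0.134 to 0.22. F12 was 0.00107 with array weights, and Fasn was −0.0176 after quantile normalization. Of 180 list medians with an array left out, 22 moved by more than the spread between replicates.

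With the replicate number as a block, 5 genes passed (Bhlhe41, Hsd3b5, Plin4, Slc27a1 and Themis), while Cd36, F11 and Gpat3 lost the call. Nothing in the labels says that same-numbered mice shared a cage or day. Residuals of high-fat arrays of the same number correlated at 0.0798 to 0.112 across genes and those of other pairs at −0.0885 to −0.00157, so every array correlated best with its own number, but not every same-numbered pair was over 0.1, and the numbers were not taken as a pairing.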
